A study of Homo sapiens with 8 samples.

Results

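The miR-181 family is a group of closely related microRNAs, and 4 of its members were counted here among 2867 entries, of which 903 were known microRNAs. The entries were every row named miR-181 with a letter from a to d, namely miR-181a-5p, miR-181b-5p, miR-181d-5p and miR-181c-3p, and all 4 had enough counts to be tested. The counts come from small RNA libraries of HEK293, an established human embryonic kidney cell line. In 4 libraries the cells had been transfected with 100 nM of an antisense oligonucleotide (ASO), a synthetic strand designed to pair with 1 RNA and here named for miR-31, and 4 control libraries came from cells given no ASO. All were harvested at 48 h, and the stated question was that of off-target effects on small RNAs. No group was given an unrelated ASO, and the labels do not say whether controls were mock-transfected, so an effect of this ASO and of transfection itself cannot be told apart. Nothing in the labels ties the libraries to separate cultures, and the p-values therefore rest on a spread between libraries that may be technical.

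A microRNA is cut from a hairpin precursor, first by Drosha in the nucleus and then by Dicer in the cytoplasm, and the strand kept in an Argonaute protein guides it to messenger RNAs that pair with its seed. The strand from the left side of the hairpin is called 5p and that from the right side 3p. In the miR-181 family the 5p strand is the guide strand, and it is best known in lymphocytes, where miR-181a raises the sensitivity of developing T cells to antigen by lowering phosphatases that damp receptor signalling. The family is also expressed in brain, muscle and endothelium.

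Mature sequences from RefSeq (GRCh38.p14) were found for all 4 entries and are shown because the family is defined by them, with the seed, bases 2 to 8, in capitals.
miR-181a-5p: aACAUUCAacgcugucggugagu
miR-181b-5p: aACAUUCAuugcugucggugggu
miR-181d-5p: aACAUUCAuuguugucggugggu
miR-181c-3p: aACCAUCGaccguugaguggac
The first 3 share the seed ACAUUCA, so seed pairing alone would give them the same targets. Counting positions from 1 at the 5′ end, miR-181b-5p differs from miR-181a-5p by A9U, C10U and A21G, and miR-181d-5p differs from miR-181b-5p by C12U alone. miR-181c-3p is a strand from the other side of its hairpin and has the seed ACCAUCG, so it is a product of the same family of genes but not a member of the seed family. Among 2370 mature names in the RefSeq table, ACAUUCA belonged to 5 and ACCAUCG to 1. The other names with the first seed, miR-181c-5p and miR-4262, were not among the entries counted here. miR-181c-5p, of 22 bases, differs from the 23 bases of miR-181a-5p by 1 missing base. A substitution of 1 base separates miR-181b-5p from miR-181d-5p. How the counting step, which is not given in the sources used here, divided reads between such near-identical strands is therefore uncertain.

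The family is made from 6 hairpin genes in 3 pairs. MIR181A1 and MIR181B1 lie 61 bases apart on chromosome 1, within an intron of MIR181A1HG, a long noncoding RNA gene. MIR181A2 and MIR181B2 lie 1158 bases apart on chromosome 9, in an intron of the noncoding gene MIR181A2HG, which runs antisense to NR6A1, a nuclear receptor gene. MIR181C and MIR181D lie 66 bases apart on chromosome 19, in an intron of NANOS3 on the same strand by the GENCODE 29 annotation. NANOS3 encodes an RNA-binding protein of germ cells. Hairpins of both MIR181A genes are shown because each holds the same miR-181a-5p, in capitals, in a different surround.
MIR181A1, chr1:198859044-198859153, minus strand: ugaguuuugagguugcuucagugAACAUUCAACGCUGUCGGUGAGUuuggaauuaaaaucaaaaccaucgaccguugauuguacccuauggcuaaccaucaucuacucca
MIR181A2, chr9:124692442-124692551, plus strand: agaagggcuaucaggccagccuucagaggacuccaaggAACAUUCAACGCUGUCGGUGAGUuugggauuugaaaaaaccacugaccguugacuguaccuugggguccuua
The mature strand is identical in both, so a count of miR-181a-5p does not say which gene it came from, and the same holds for miR-181b-5p, which both MIR181B genes make. The chromosome 19 hairpins are shown because their 2 counted strands have a single source each.
MIR181C, chr19:13874699-13874808, plus strand, miR-181c-3p in capitals: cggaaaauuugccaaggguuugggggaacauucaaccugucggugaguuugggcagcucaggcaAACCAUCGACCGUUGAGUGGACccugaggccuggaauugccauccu
MIR181D, chr19:13874875-13875011, plus strand, miR-181d-5p in capitals: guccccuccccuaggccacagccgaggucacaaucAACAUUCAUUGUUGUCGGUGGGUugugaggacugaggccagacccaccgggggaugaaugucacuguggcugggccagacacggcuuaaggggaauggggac

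Total counts per library ran from 8168828 to 11677123. Control library 1 stood apart from the rest: of the 745 entries tested it was the lowest library in 204 and the highest in 196, together 53.7% of entries, where the other 7 libraries held an extreme in 13.2% to 34.2%. The fold changes of the miR-181 entries, and the other changes set beside them, are therefore also given without it. miR-31-5p, taken as the target from the name of the ASO, ran from 637 to 1018 CPM in ASO libraries. In controls it ran from 349.8 to 1056 CPM, with control library 1 lowest, so it gave no check of the labels. The label HEK293 was checked against microRNAs known to be abundant in that line (miR-7, miR-10a, miR-10b, miR-21, miR-92a and miR-196a). Their 7 entries with different counts together stood at 290269 to 322994 CPM with ASO and 302350.4 to 362179 CPM in controls. A further entry, miR-92a-3p, repeats the counts of miR-92a-2-3p and was left out of the sum. The sum still holds miR-92a-1-3p and miR-92a-2-3p, with means of 57874 and 53995 CPM in controls. Whether these entries share reads is not known, and shared reads would be counted more than once. Blood cells are another known source of miR-181. Of 5 listed blood cell entries, miR-142-3p, miR-144-5p and both miR-150 strands averaged under 1 CPM, and miR-486-5p averaged 82.1 CPM in ASO libraries and 83.1 CPM in controls. Markers of other types were measured as well, with summed levels of 3093 to 3470 CPM with ASO and 3422 to 3766 CPM in controls for 3 neural entries, nearly all of it miR-9-5p, and of 833 to 901 and 819 to 944 CPM for the endothelial miR-126-3p. Sums were 32.1 to 35.4 and 25.9 to 35.4 CPM for 5 muscle entries and 146 to 161 and 131 to 159 CPM for 5 mesenchymal ones. The liver marker miR-122-5p stood at 24.9 to 40.6 CPM with ASO and 10.1 to 14.9 CPM in controls. The ranges of this marker did not overlap (adjusted p = 0.0516 in edgeR, or 0.0683 without control library 1). All ASO libraries lay above all controls in 3.09% of the 745 entries tested. The part of miR-122-5p in the results below was not tested.

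Levels are CPM, counts scaled to the total of the tested entries with TMM factors, a correction for differences in library makeup, and means carry the SD over the libraries of a group (n = 4). A level is an average over the cells of a culture, so fewer cells with a strand and less of it per cell cannot be told apart. Among the 4 entries miR-181b-5p was the most abundant, then miR-181a-5p, miR-181d-5p and miR-181c-3p, and this order held in all 8 libraries. The 3 seed-family entries are all 23 bases long and miR-181c-3p 22, and whether length bears on the order was not tested; adapter ligation also favours some sequences and can shift levels between microRNAs. In the controls miR-181b-5p ranked 42nd, miR-181a-5p 48th, miR-181d-5p 79th and miR-181c-3p 194th of the 903 known microRNAs. Across libraries the levels of miR-181b-5p and miR-181a-5p overlapped, though within each library miR-181b-5p was 1.13 to 1.37 times miR-181a-5p. miR-181a-5p was 2.98 to 3.36 times miR-181d-5p, and miR-181d-5p 12.6 to 18.3 times miR-181c-3p, with no overlap between these levels.

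miR-181b-5p, the most abundant seed-family strand, stood at 4904, 5187, 5347 and 4417 CPM in ASO libraries 1 to 4. In control libraries 1 to 4 it stood at 3115, 4045, 4351 and 4623 CPM. The highest 3 values were all from ASO libraries and the lowest was control library 1, while ASO library 4 lay below control library 4, so the groups overlapped. The mean was 4034 ± 656 CPM in controls and 4964 ± 408 CPM with ASO. In edgeR's quasi-likelihood test over all 745 entries the log2 fold change was 0.30 (SE 0.13, adjusted p = 0.445), a fold of 1.23 with a 95% interval of 1.003 to 1.51. This did not pass the adjusted threshold of 0.05. Without control library 1 the control mean was 4340 ± 289 CPM (n = 3), and the log2 fold change was 0.21 (adjusted p = 0.615 in edgeR).

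miR-181a-5p, the member best known from T cells, stood at 4005, 3966, 3899 and 3479 CPM in ASO libraries 1 to 4. The control libraries held 2748, 3224, 3357 and 3487 CPM in the same order. ASO library 4 and control library 4 differed by 8.49 CPM, less than the counting error of either, and were the only pair of libraries that put the groups out of order. The mean was 3204 ± 323 CPM in controls and 3837 ± 243 CPM with ASO. The log2 fold change was 0.26 (SE 0.09, adjusted p = 0.402 in edgeR), a fold of 1.20 with a 95% interval of 1.04 to 1.38. It did not pass the threshold in edgeR, and DESeq2, the alternative count test, put it past the threshold (log2 fold change 0.25, adjusted p = 0.0418), where it was 1 of 9 entries called higher, or 1.21% of those tested. Over all 15 alternatives, DESeq2 included, the adjusted p ran from 0.0418 to 0.705. Without control library 1 the control mean was 3356 ± 132 CPM (n = 3), and the log2 fold change was 0.21 (adjusted p = 0.527 in edgeR).

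miR-181d-5p, the seed-family strand made on chromosome 19, stood at 1231, 1181, 1219 and 1088 CPM in ASO libraries 1 to 4. In control libraries 1 to 4 it stood at 884, 1048, 1126 and 1138 CPM. As with the previous strands, ASO library 4 was the lowest of its group and control library 1 the lowest of all, and ASO library 4 lay below control libraries 3 and 4. The mean was 1049 ± 117 CPM in controls and 1180 ± 64.5 CPM with ASO. The log2 fold change was 0.17 (SE 0.09, adjusted p = 0.464 in edgeR), a fold of 1.12 with a 95% interval of 0.972 to 1.302, and was the smallest of the 4 entries. Without control library 1 the control mean was 1104 ± 48.7 CPM (n = 3), and the log2 fold change was 0.11 (adjusted p = 0.711 in edgeR), so leaving out this library lowered the change by more than 1.5 times.

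miR-181c-3p, made from the hairpin next to miR-181d-5p, stood at 83.8, 93.8, 80.2 and 71.4 CPM in ASO libraries 1 to 4. In control libraries 1 to 4 it stood at 48.2, 72.2, 76.9 and 70.7 CPM. These levels rest on 486 to 1111 counts per library, against 8909 counts or more for each of the other entries. Control library 1 was again the lowest, and ASO library 4 lay among the remaining 3 controls. The mean was 67.0 ± 12.8 CPM in controls and 82.3 ± 9.28 CPM with ASO. The log2 fold change was 0.30 (SE 0.16, adjusted p = 0.466 in edgeR), a fold of 1.23 with a 95% interval of 0.949 to 1.59. Without control library 1 the control mean was 73.3 ± 3.24 CPM (n = 3), and the log2 fold change fell to 0.18 (adjusted p = 0.711 in edgeR), again a drop of more than 1.5 times.

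**Figure D1:**
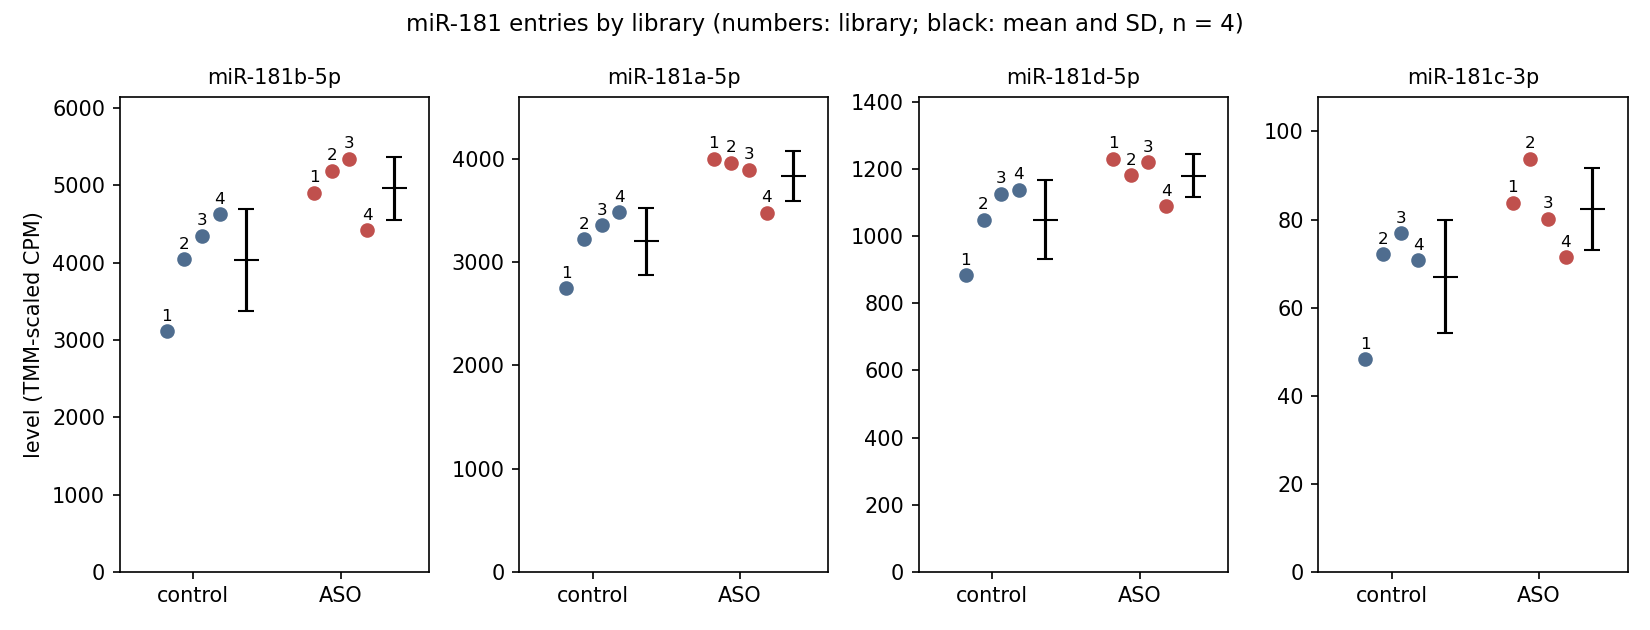
Level of each miR-181 entry in TMM-scaled CPM (vertical axis, from 0, on a separate scale in each panel) in the 4 control libraries (blue) and the 4 ASO libraries (red), numbered by library, with the mean and SD in black. Control library 1 is the lowest point in every panel and ASO library 4 the lowest of the ASO libraries, and in each panel 3 of the 4 ASO libraries lie above all controls.

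Of the 4 entries, 0 passed the adjusted threshold in edgeR, against 0.134% of the 745 entries tested (1 entry, which was lower with ASO). At an unadjusted p under 0.05 in edgeR there were 2, miR-181a-5p (0.0175) and miR-181b-5p (0.0478), both higher with ASO, where 4.43% of all entries were higher at that level. All 4 had a fold above 1, as did 51.7% of all entries, and their median log2 fold change was 0.28, where the median of all entries was 0.01. These medians were 0.20 and 0.02 without control library 1. These strands moved together between libraries, so they are not 4 separate observations. Of the 745 entries tested, 333 had a larger change in size than miR-181b-5p, and 31 had a smaller p in edgeR than miR-181a-5p.

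Exact permutation tests of the difference in mean log2 level (two-sided, n = 4 per group, where the 70 arrangements allow a smallest p of 0.0286) gave p = 0.0571 for miR-181a-5p and for miR-181b-5p, and p = 0.0857 for miR-181d-5p and for miR-181c-3p. The value for miR-181a-5p turned on the scaling, since the close levels of ASO library 4 and control library 4 changed places. With CPM over the whole library the difference was 0.28 and with median-ratio scaling 0.25, and with either the groups of miR-181a-5p no longer overlapped and the exact permutation test gave p = 0.0286, the smallest it can give. With TMM scaling, under which the groups of miR-181a-5p overlapped, the ASO libraries lay above all controls in 23 of the tested entries (3.09%). The groups did not overlap in either direction in 8.32%. These shares were not computed with the other scalings.

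**Figure D2:**
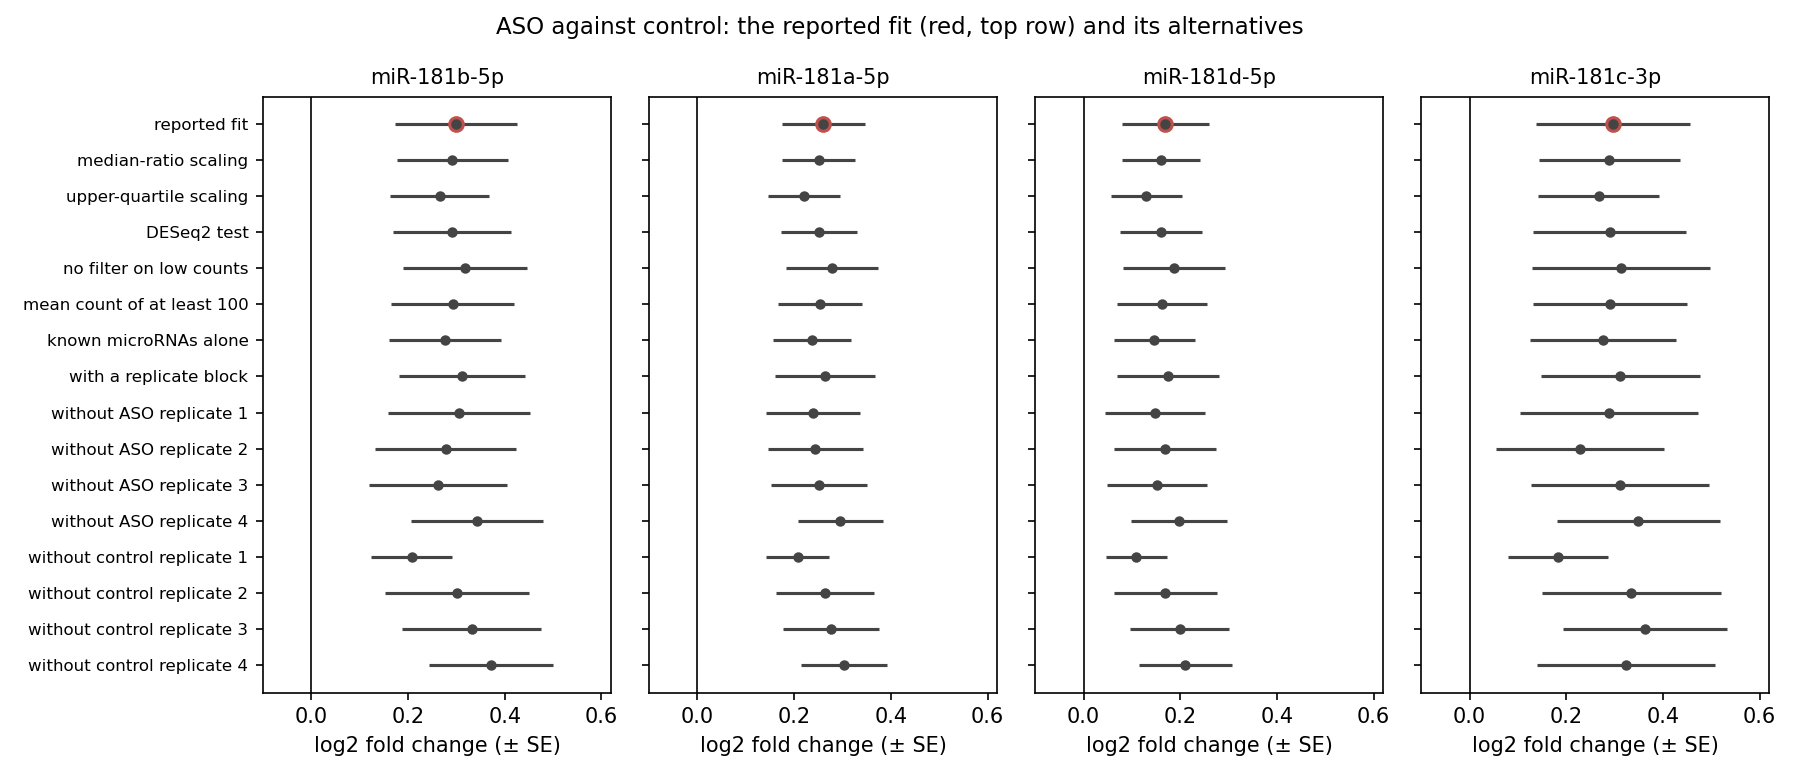
Log2 fold change of each miR-181 entry, ASO against control, with its standard error (horizontal axis), for the reported edgeR fit (red, top row) and 15 alternatives in scaling, test, filter, block and libraries. All points lie to the right of 0, and the value without control replicate 1 is the lowest in each panel, down to 0.21 for miR-181a-5p and miR-181b-5p and 0.11 for miR-181d-5p.

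Summed over the 3 entries with the seed ACAUUCA, the level averaged 8287 ± 1095 CPM in controls and 9981 ± 677 CPM with ASO. The ASO libraries held 10140, 10334, 10464 and 8984 CPM in order, and the controls 6747, 8317, 8834 and 9248 CPM. The order of the libraries was that of miR-181b-5p, its most abundant strand, with ASO library 4 between control libraries 3 and 4. Without control library 1 the control mean was 8800 ± 467 CPM (n = 3). As a share of all counts the sum ran from 0.648% (Wilson 95% interval 0.643% to 0.653%) in control library 1 to 1.05% (1.04% to 1.05%) in ASO library 2. Counting error was therefore far smaller than the spread between libraries.

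Within the family, miR-181b-5p made up 49.3% ± 1.19 of the counts of the 4 entries with ASO and 48.1% ± 1.62 in controls. miR-181a-5p made up 38.1% ± 0.918 and 38.5% ± 1.37, miR-181d-5p 11.7% ± 0.352 and 12.6% ± 0.330, and miR-181c-3p 0.817% ± 0.0602 and 0.798% ± 0.0763. The share of miR-181d-5p did not overlap between the groups, at 11.3% to 12.04% with ASO and 12.2% to 13.01% in controls, while the shares of the other 3 entries overlapped. The share has the same numerator as the ratio of miR-181d-5p to miR-181a-5p given next, so they are not separate results. How often a share of this kind separates the groups among all tested entries was not computed. The difference in share was not tested.

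Ratios within a library do not depend on the scaling. For each 100 counts of miR-181a-5p there were 30.7, 29.8, 31.3 and 31.3 counts of miR-181d-5p in the ASO libraries, in order, and 32.2, 32.5, 33.5 and 32.6 in the controls. This was the steadiest ratio of those computed (coefficient of variation 3.79% over the 8 libraries), and its groups did not overlap, with a mean of 30.8 ± 0.710 with ASO and 32.7 ± 0.579 in controls. Among the ratios of every other tested entry to miR-181a-5p the groups did not overlap in 16.7%, so a ratio that separates the groups was common for this strand. The ratio was singled out after its values were seen and was not tested.

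The other 3 ratios overlapped between groups. There were 129 ± 6.23 counts of miR-181b-5p per 100 of miR-181a-5p with ASO and 125 ± 8.44 in controls, with control library 1 lowest at 113. For each 100 counts of miR-181b-5p there were 23.8 ± 1.22 counts of miR-181d-5p with ASO and 26.2 ± 1.57 in controls, with control library 1 highest at 28.4. The pair from chromosome 19 is made from neighbouring hairpins, yet the ratio of miR-181c-3p to miR-181d-5p was the least steady, with 6.98 ± 0.658 per 100 with ASO, 6.35 ± 0.668 in controls and a coefficient of variation of 10.5%. Its lowest value was 5.46 in control library 1 and its highest 7.95 in ASO library 2.

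**Figure D3:**
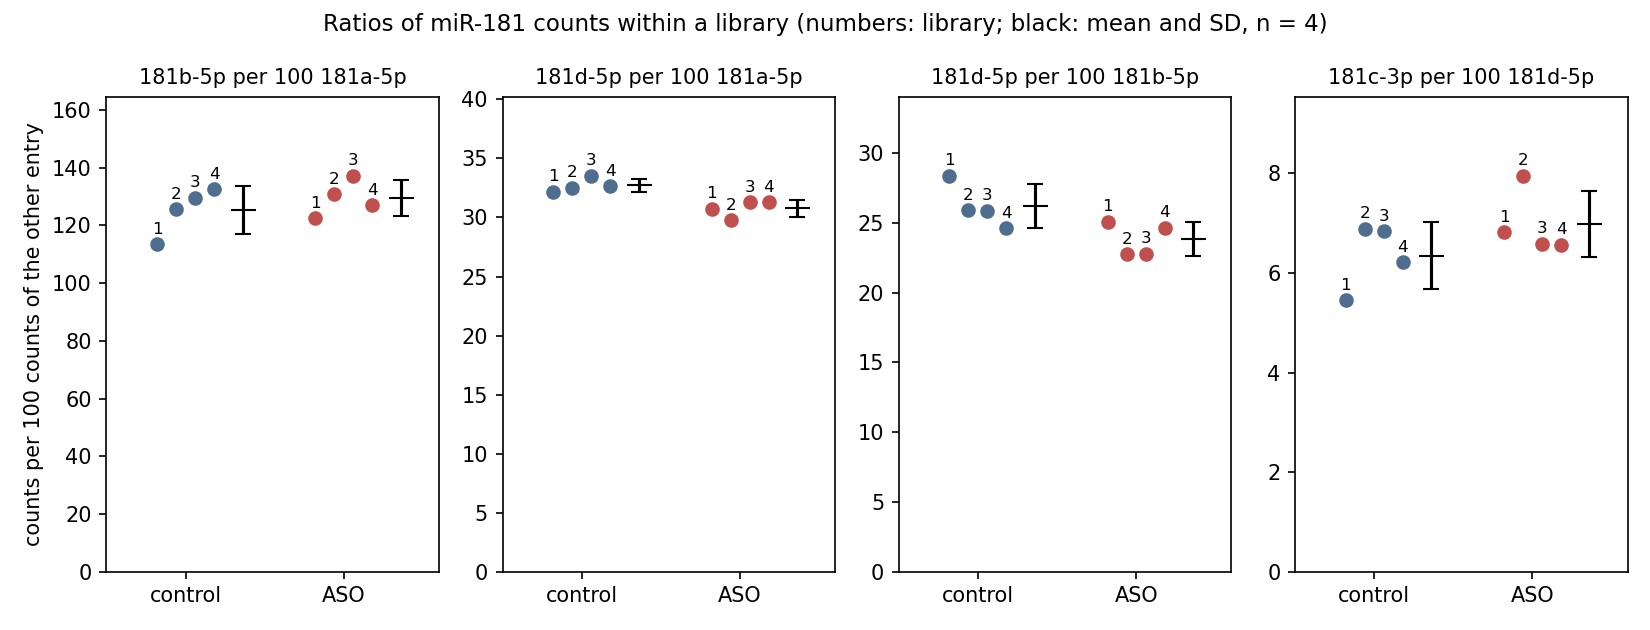
Counts of one miR-181 entry per 100 counts of another in the same library (vertical axis, from 0) in the 4 control libraries (blue) and the 4 ASO libraries (red), numbered by library, with the mean and SD in black. Only the ratio of miR-181d-5p to miR-181a-5p has groups that do not overlap, at 29.8 to 31.3 with ASO and 32.2 to 33.5 in controls.

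Likeness between strands was measured as the root-mean-square difference of their log2(CPM + 1) levels over the 8 libraries after each was centred on its own mean, so that 0 would be the same course across libraries. All these courses share the 8 libraries and their scaling. The nearest pair in the family was miR-181a-5p and miR-181d-5p (0.051), which are made on different chromosomes. miR-181a-5p and miR-181b-5p, which are neighbours on chromosomes 1 and 9, stood at 0.078, and miR-181d-5p and miR-181c-3p, neighbours on chromosome 19, were the least alike pair (0.14). miR-181a-5p and miR-181d-5p were the strands that moved least between libraries, with a root-mean-square deviation from their own mean of 0.17 and 0.14, against 0.23 for miR-181b-5p and 0.26 for miR-181c-3p. Part of this rested on control library 1. Without it miR-181a-5p and miR-181b-5p were the nearest pair (0.0501, against 0.0543 for miR-181a-5p and miR-181d-5p), the least alike were miR-181c-3p with miR-181b-5p and with miR-181d-5p (0.101 for both), and the deviations were 0.12 for miR-181a-5p, 0.13 for miR-181b-5p, 0.078 for miR-181d-5p and 0.14 for miR-181c-3p.

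Outside the family, the microRNAs most like miR-181b-5p among 166 known ones with a mean of at least 100 CPM were miR-505-3p (0.036), miR-942-5p (0.055), miR-23b-3p (0.059), miR-484 (0.0602) and let-7d-5p (0.0607). The median over the 166 was 0.22. All 5 were nearer to miR-181b-5p than its family member miR-181a-5p was, and 10 of the 166 were. Without control library 1 the median over the 166 was 0.16, 2 of the 166 were nearer than miR-181a-5p, and of the 5 named microRNAs miR-505-3p (0.033) and miR-942-5p (0.056) stayed among the nearest 5. These 5 had log2 fold changes of 0.23 to 0.32, and none passed the threshold (adjusted p = 0.445 to 0.464 in edgeR). They were chosen for a course like that of miR-181b-5p over the same 8 libraries, so fold changes near its own follow from the choice. Their log2 fold changes were 0.15 to 0.22 without control library 1. miR-505-3p, for example, had a mean of 353 ± 62.9 CPM in controls and 440 ± 40.3 CPM with ASO, a log2 fold change of 0.32.

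**Figure D4:**
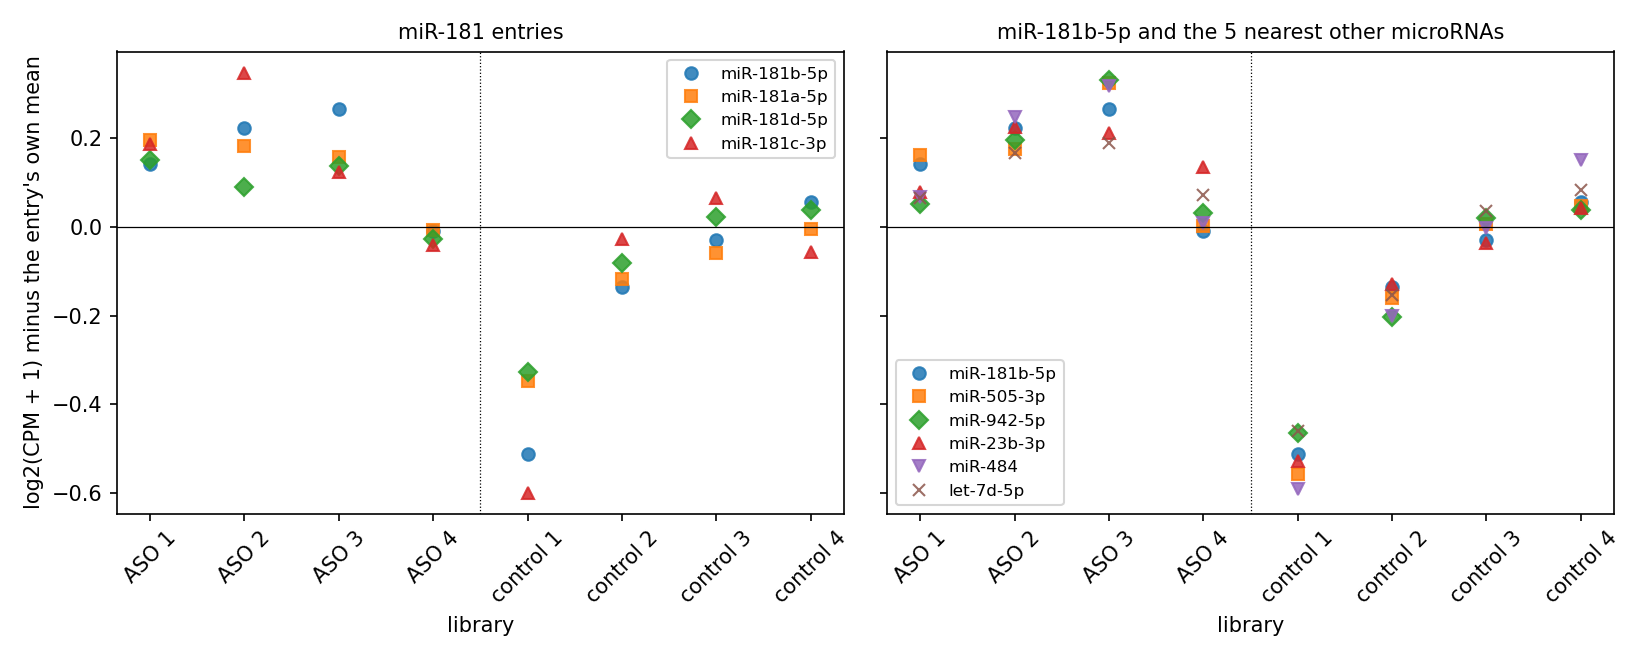
Log2(CPM + 1) minus the entry's own mean (vertical axis) in each of the 8 libraries (horizontal axis; the dotted line separates the groups) for the 4 miR-181 entries (left) and for miR-181b-5p with the 5 known microRNAs most like it (right). Every entry in both panels is lowest in control library 1.

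Other microRNAs with established roles in lymphocytes, the cells in which miR-181a is best known, were taken from a list of 19 names. It had 23 entries in the table, of which 18 were tested. At the adjusted threshold in edgeR 0 rose and 0 fell, where 0.134% of all tested entries were called. A fold above 1 was found for 12 of the 18 and for 51.7% of all tested entries. The median log2 fold change of the 18 was 0.17, against 0.01 for all entries. It was 0.08 against 0.02 without control library 1, so more than 1.5 times smaller. A fold above 1 was then found for 13 of the 18 and for 397 of all 745 entries. The most abundant were miR-21-5p, widely raised in tumours (log2 fold change −0.11, with 77127 ± 7859 CPM in controls and 71616 ± 4918 CPM with ASO), and 2 entries of miR-92a, which is made from clusters linked to proliferation. miR-92a-1-3p stood at 57874 ± 4959 CPM in controls and 60890 ± 2820 CPM with ASO (0.07), and miR-92a-2-3p at 53995 ± 4950 and 57519 ± 2800 CPM (0.09). Leaving out control library 1 gave −0.032 for miR-21-5p, 0.029 for miR-92a-1-3p and 0.043 for miR-92a-2-3p. miR-92a-3p has the same counts as miR-92a-2-3p, and some other microRNAs are entered by copy, such as miR-128-1-3p and miR-128-2-3p. The list therefore holds fewer separate microRNAs than entries, and its counts and medians are over entries. In these HEK293 libraries the 3 miR-181 seed-family strands together were less abundant than each of those named from the list. Those were named as the most abundant of the list, so this does not rank the family against its other entries.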

How the data were processed

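Small RNA of HEK293 cells was sequenced in 8 libraries, which were grouped by their titles. Per the labels' protocols, total RNA came from a miRNeasy extraction and went into NEB's small RNA library preparation. The tools were bcl2fastq 2.20, Trimmomatic 0.30 and edgeR 3.4.6 and the genome GRCh38, per the submitters' processing notes; the aligner and counter are not given in these sources. The authors deposited raw counts per entry, which were used here, and columns headed TPM that are CPM by their values (within 0.223 CPM of the count scaled to the library total). The deposited table also gives a length of 18 to 25 bases per entry.

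Entries with a mean count of 10 or more that were above 0 in at least 4 libraries (745, holding 98.1% to 99.9% of a library's counts) were fitted with edgeR 4.0.16 (TMM factors 0.964 to 1.02, quasi-likelihood test, two-sided, Benjamini-Hochberg over all 745, threshold 0.05), and the step was tested on simulated data. Standard errors were taken from the fold change and the F statistic. DESeq2 1.42.0 was an alternative. Likeness, and the changes of microRNAs outside the family, without control library 1 were added after seeing the data, as was counting identical entries once in the HEK293 sum. Replicates were compared by chi-square over their counts (135 to 801 per degree of freedom), so none repeated another. Wilson intervals leave out all but counting error, as PCR copies are not separate molecules. The named microRNAs are the members, the 5 most alike (pseudocount 1), and from the lymphocyte list any called and the 3 most abundant. miR-486-5p, miR-122-5p and other markers were named as measured beside them. The members, lists and tests were chosen with earlier results of these data known. Sequences are RefSeq's, and host genes GENCODE 29's, both GRCh38.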

Additional observations from a re-analysis of the deposited data

How the results depend on the processing

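All 4 log2 fold changes stayed above 0 under the 15 alternatives run. Leaving out each library in turn gave 0.21 to 0.30 for miR-181a-5p, 0.21 to 0.37 for miR-181b-5p, 0.11 to 0.21 for miR-181d-5p and 0.18 to 0.36 for miR-181c-3p, the lowest each time without control replicate 1. miR-181a-5p passed the threshold in DESeq2 (log2 fold change 0.25, adjusted p = 0.0418) and the smallest exact permutation p was reached with no scaling factors (difference 0.28) and with median-ratio scaling (difference 0.25); otherwise no member passed. Entries called over the whole table were 0 higher and 1 lower in the reported fit. They were 9 and 12 with DESeq2, 0 and 0 with no filter on low counts, 1 and 4 with a mean count of at least 100 and 1 and 3 among known microRNAs alone. Without a single library they ran from 0 to 3 higher and from 0 to 2 lower, with 0 lower without control replicate 2 and 3 higher without control replicate 4. With a replicate block on the library number, 0 entries were higher and 0 lower, and the log2 fold changes were 0.26 for miR-181a-5p, 0.31 for miR-181b-5p, 0.17 for miR-181d-5p and 0.31 for miR-181c-3p (adjusted p = 0.509 to 0.5204 in edgeR). The deviations of same-numbered libraries had correlations across entries of 0.007, 0.034, 0.297 and −0.039 for numbers 1 to 4. Of the ASO libraries only library 3 correlated best with the control of its own number, so the numbers were not taken to pair libraries. The cause of these changes was not tested. Levels and family shares moved by less than 1 SD with no scaling factors, with median-ratio scaling and on leaving out each library; they were not computed with upper-quartile scaling. None of the members had counts identical to another entry, so counting such entries once changed nothing. With 486 to 1111 counts per library, miR-181c-3p had the widest interval.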
